A study of Mus musculus with 5 samples.

Results

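COPII and COPI are the protein coats that bud transport vesicles between the endoplasmic reticulum (ER), where secreted proteins are made and folded, and the Golgi apparatus. COPII vesicles carry new cargo forward out of the ER, and COPI vesicles carry escaped ER residents and recycling receptors back. Procollagen is too large for an ordinary COPII vesicle, so matrix-secreting fibroblasts lean on this route and on dedicated exit receptors. The genes described here are 39 of this machinery, chosen by name, and all 39 were found among the 55335 gene IDs of the count table and passed the filter on low counts that left 16380 genes for testing. They are 15 COPII genes (coat, GTPase cycle, scaffolds and large-cargo receptors), 12 COPI genes (coatomer and GTPase cycle), 11 cargo and KDEL receptors and 1 ER-Golgi SNARE, a membrane fusion protein.

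The cells were primary fibroblasts grown out of mouse lung and kept in culture. TGF-β1, the cytokine that drives fibroblasts toward matrix secretion, was added for 24 h at 5 ng/mL in 3 libraries, and 2 libraries came from vehicle-treated control cells. The labels give no strain, genotype, sex or age of the mice, and do not tell replicate animals from replicate dishes, so a p-value here covers only the variation among these 5 libraries. Total counts were 41413098, 43163967 and 39769301 in the TGF-β1 libraries and 34283288 and 40245128 in the controls. Levels are TMM-normalized CPM (counts scaled to library size), log2 fold changes have TGF-β1 on top and control below, and adjusted p-values come from edgeR's quasi-likelihood test over all 16380 genes, with 0.05 as the threshold.

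The labelled cell type was checked against markers. The 10 fibroblast genes summed to between 53418 and 53889 CPM with TGF-β1 and between 45205 and 46862 CPM in controls, with 5 of them higher and 5 lower, and Lum was under 1 CPM throughout. Of 10 epithelial markers, Sftpc, Sftpa1, Sftpb, Nkx2-1 and Scgb1a1 had 0 counts in every library. The list summed to between 80.6 and 84.9 CPM with TGF-β1 and between 85.2 and 90.8 CPM in controls, nearly all of it the keratin genes Krt8 and Krt18. Of the 4 that could be tested, Cdh1 was higher, at 4.1, 3.95 and 3.7 CPM with TGF-β1, against 2.28 and 1.78 CPM in controls, and Krt18 was lower, at 46.9, 42.6 and 44.3 CPM with TGF-β1, against 51.3 and 49.7 CPM in controls. The 8 endothelial markers summed to between 3.13 and 4.57 CPM with TGF-β1 and between 4.43 and 5.04 CPM in controls. Markers of other cells did move with the treatment. The 10 mesothelial markers summed to between 370.2 and 387 CPM with TGF-β1 and between 1573 and 1661 CPM in controls (9 lower, 1 higher). The 8 leukocyte markers, led by the macrophage lysozyme Lyz2, summed to between 1429 and 1460.4 CPM with TGF-β1 and between 2359 and 2444 CPM in controls (6 tested, 5 lower and 1 higher), with the T-cell gene Cd3e at 0 counts. The 7 smooth muscle and pericyte markers summed to between 1531 and 1578 CPM with TGF-β1 and between 1958 and 2028 CPM in controls (2 higher, 4 lower). The part of these shifts in the results below was not tested, and in a bulk culture fewer cells of a type and less RNA per cell cannot be told apart.

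The vesicle transport genes rose together, by small amounts. With TGF-β1, 35 of the 39 were higher, 1 was lower (Copg2) and 3 did not pass the test (Sec24b, Sec24c and Ergic1). Over all genes tested, 21.3% were called higher and 23.2% lower. Among the 5533 genes at least as abundant as the scarcest of the 39, a background added after the values were seen, 40.6% were higher and 22.9% lower. On the log2 scale the median change of the 39 was 0.29, or 21.9% more transcript, against 0.00 over all genes and 0.08 over those 5533. All 35 increases were under 1.5-fold, and the summed level of the 39 genes was between 8567 and 8914 CPM in TGF-β1 libraries and between 7006 and 7064.5 CPM in controls. In 35 of the 39 every TGF-β1 library lay above both controls, as did 31.6% of all genes tested and 2768 of those 5533. In Copg2 and Ergic1 every TGF-β1 library lay below both controls, as did 33.0% of all genes and 1585 of those 5533.

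**Figure D1:**
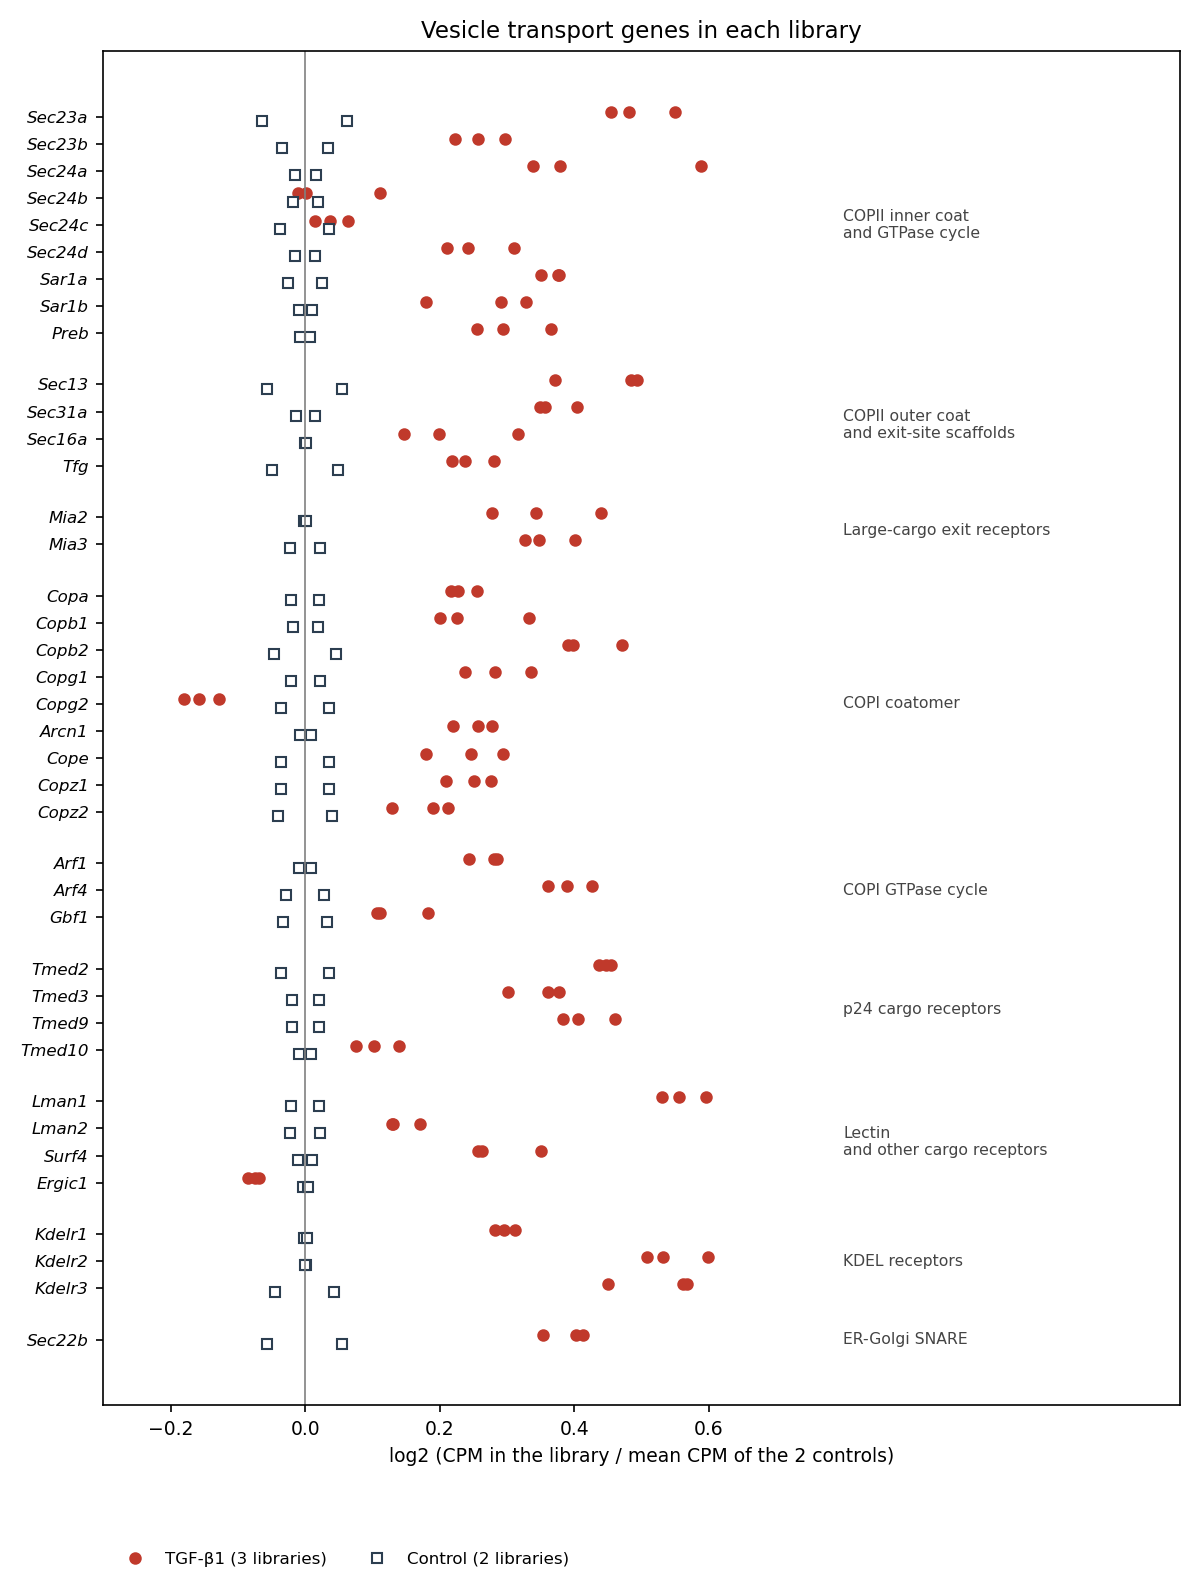
Level of each of the 39 genes in each library, as log2 of its CPM over the mean CPM of the 2 controls, grouped by role. Filled circles are the 3 TGF-β1 libraries and open squares the 2 controls. In 35 genes all circles lie right of both squares, in Copg2 and Ergic1 they lie left of both, and in Sec24b and Sec24c they overlap.

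The size of these changes depends on the scaling between libraries. Scaled by library totals alone, the log2 fold change of the median gene was −0.10, and 30 of the 39 were called higher, against 14.2% of all genes, and 2 lower (Copg2 and Ergic1), against 30.0%. The 5 increases lost under that scaling were Sec16a, Copz2, Gbf1, Tmed10 and Lman2. TGF-β1 replicate 3 was the highest of its group in 29 of the 39 genes, and without it the count was again 35 higher. How often replicate 3 was the highest over all genes is not given here.

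By direction of transport, the forward and retrograde sets moved alike in sign. The median log2 fold change was 0.31 over the 15 COPII genes, 0.25 over the 12 COPI genes and 0.35 over the 11 receptors. The COPII genes ran from 0.03 to 0.50, the COPI genes from −0.16 to 0.42 and the receptors from −0.08 to 0.56, so the sets overlapped along most of their ranges. In single TGF-β1 libraries, relative to the control mean, the COPII median was 0.29, 0.26 and 0.37. The COPI median was 0.22, 0.23 and 0.28, and the receptor median 0.36, 0.30 and 0.38. The order of the 3 sets was the same in each library. Each library was set against the same control mean, so these repeats are not independent. The difference between sets was not tested.

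**Figure D2:**
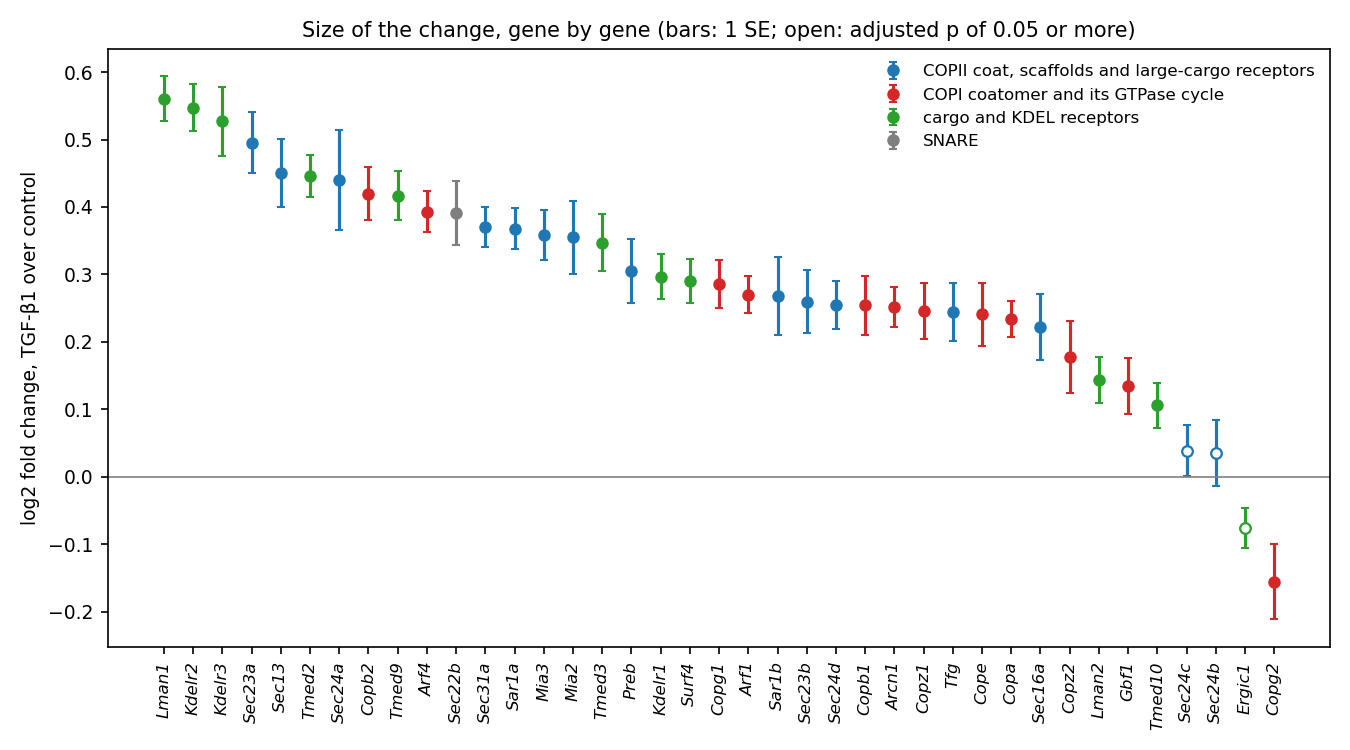
Log2 fold change of TGF-β1 over control for each gene, ordered by size, with bars of 1 standard error and colours for COPII, COPI, receptor and SNARE genes. The receptors Lman1, Kdelr2 and Kdelr3 stand at the top at 0.53 to 0.56, and Copg2 stands last at −0.16. Open points did not pass the test.

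In the COPII inner coat, SAR1 GTPases are loaded by PREB (SEC12) and recruit SEC23-SEC24 dimers, of which SEC23 activates the GTPase and SEC24 binds cargo. Sec23a (chromosome 12, 58958383 to 59012017 of GRCm38) had 261, 257 and 274 CPM in the TGF-β1 libraries, against 179 and 195 CPM in the controls. It was the COPII gene with the largest increase, at a log2 fold change of 0.50 (SE 0.045, adjusted p = 2.08e-05), or 40.9% more transcript. Mutation of human SEC23A causes a craniofacial dysplasia with defective collagen export. Its paralog Sec23b had 81.4, 79.5 and 83.7 CPM with TGF-β1, against 69.7 and 66.5 CPM in controls (log2 fold change 0.26, SE 0.047, adjusted p = 0.00162). All TGF-β1 libraries exceeded both controls for each of the paralogs.

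The 4 Sec24 cargo adaptors split. Sec24d had 279, 285 and 298 CPM with TGF-β1, against 238 and 243 CPM in controls (log2 fold change 0.25, SE 0.036, adjusted p = 0.000369). Sec24a had 66.5, 64.7 and 76.9 CPM with TGF-β1, against 51.7 and 50.6 CPM in controls (log2 fold change 0.44, SE 0.074, adjusted p = 0.0011), with replicate 3 the highest. Sec24b and Sec24c did not pass. Sec24b had 94.7, 93.9 and 102 CPM with TGF-β1, against 95.9 and 93.4 CPM in controls (log2 fold change 0.03, SE 0.049, adjusted p = 0.602). Sec24c had 151, 146 and 148 CPM with TGF-β1, against 148 and 141 CPM in controls (log2 fold change 0.04, SE 0.038, adjusted p = 0.455). For these 2 genes the libraries of the groups overlapped, and with library totals the log2 fold change of each was −0.06.

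Of the GTPases, Sar1a (chromosome 10, 61680299 to 61693297) had 296, 290.0 and 295 CPM with TGF-β1, against 232 and 223 CPM in controls, a log2 fold change of 0.37 (SE 0.031, adjusted p = 1.13e-05). Sar1b, the form mutated in human chylomicron retention disease, had 53.2, 48.0 and 51.8 CPM with TGF-β1, against 42.6 and 42.1 CPM in controls (log2 fold change 0.27, SE 0.058, adjusted p = 0.00454). Their exchange factor Preb had 89.2, 86.8 and 93.7 CPM with TGF-β1, against 73.1 and 72.4 CPM in controls (log2 fold change 0.31, adjusted p = 0.000654). In all 3 genes the groups did not overlap.

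In the outer coat, SEC13 and SEC31A form the cage around the vesicle, and SEC16A and TFG organise the exit sites where it buds. Sec13, which also encodes a nuclear pore subunit, had 159, 147 and 160.3 CPM with TGF-β1, against 109.5 and 118 CPM in controls (log2 fold change 0.45, SE 0.051, adjusted p = 8.84e-05). Sec31a had 433, 436 and 450.4 CPM with TGF-β1, against 337 and 344 CPM in controls (log2 fold change 0.37, SE 0.029, adjusted p = 7.45e-06). The scaffolds rose less: Sec16a averaged 192 ± 11.7 CPM with TGF-β1 and 164 ± 0.173 CPM in controls (SD, n = 3 and 2, log2 fold change 0.22), and Tfg (chromosome 16, 56690332 to 56717450) had 130.3, 129 and 134 CPM with TGF-β1, against 107 and 114 CPM in controls (log2 fold change 0.24, SE 0.043, adjusted p = 0.00146). The cage genes and Tfg were also higher with library totals, and Sec16a was not called there (adjusted p = 0.07).

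Mia3 encodes TANGO1, the ER exit receptor that gathers procollagen at budding sites, and Mia2 encodes its partner cTAGE5. Mia3 (chromosome 1, 183326725 to 183369553) had 191, 189 and 198 CPM with TGF-β1, against 148 and 153 CPM in controls, a log2 fold change of 0.36 (SE 0.037, adjusted p = 4.72e-05). Mia2 had 89.2, 93.4 and 99.9 CPM with TGF-β1, against 73.6 and 73.7 CPM in controls (log2 fold change 0.35, SE 0.054, adjusted p = 0.00056). The 2 partners thus rose by 28.2% and 27.9%, with every TGF-β1 library above both controls.

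The COPI coat is a single heptamer, coatomer, put on the membrane as 1 unit by ARF GTPases. Its α, β, β′, γ, δ, ε and ζ subunits are encoded by Copa, Copb1, Copb2, Copg1 or Copg2, Arcn1, Cope, and Copz1 or Copz2. Of the 9 genes, 8 were higher and 1 lower. Copa (chromosome 1, 172082529 to 172122330) had 533, 537 and 548 CPM with TGF-β1, against 465 and 452 CPM in controls (log2 fold change 0.23, SE 0.027, adjusted p = 9.43e-05). Its exons overlap those of Ncstn on the other strand, whose log2 fold change was 0.17, so its value is uncertain where strand was not used in counting. Leaving aside the second γ and ζ genes, the 7 subunit genes lay between 0.23 and 0.42 with a median of 0.25. Copb2 was the highest of the 7, with 336, 338 and 355 CPM with TGF-β1, against 248 and 265 CPM in controls (log2 fold change 0.42, SE 0.039, adjusted p = 2.22e-05). The other 6 lay between 0.23 and 0.29. Copg1, Copb1, Arcn1, Copz1 and Cope rose by between 18.2% and 21.9%, with averages of 349, 223, 336, 122 and 119 CPM with TGF-β1 and 286, 187, 282, 103 and 101 CPM in controls. Near-identical pseudogene copies of Arcn1 were counted at under 1 CPM.

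The second γ gene went against the rest of the coat. Copg2 had 31.8, 32.5 and 31.3 CPM with TGF-β1, against 34.6 and 36.4 CPM in controls, a log2 fold change of −0.16 (SE 0.056, adjusted p = 0.0489), or 10.2% less transcript. It was lost in 10 of 13 alternatives (the test against 1.5-fold left aside), with adjusted p-values between 0.0052 and 0.261 over the 13, and the log2 fold change lay between −0.26 and −0.12 in each. The second ζ gene, Copz2, was higher, with 48.7, 51.6 and 50.9 CPM with TGF-β1, against 43.3 and 45.8 CPM in controls (log2 fold change 0.18, SE 0.053, adjusted p = 0.0232), but lost its call without control replicate 1 (adjusted p = 0.159), without TGF-β1 replicate 2 (adjusted p = 0.0656) and with library totals (adjusted p = 0.285).

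ARF1 and ARF4 recruit coatomer after GBF1, their exchange factor at the early Golgi, loads them with GTP. Arf1 (chromosome 11, 59211412 to 59228270) had 423, 434 and 435 CPM with TGF-β1, against 355 and 359 CPM in controls (log2 fold change 0.27, SE 0.027, adjusted p = 4.14e-05). Arf4 had 531, 542 and 556 CPM with TGF-β1, against 405 and 422 CPM in controls (log2 fold change 0.39, SE 0.030, adjusted p = 6.86e-06). Gbf1 moved least of the 3, with 135, 135 and 142 CPM with TGF-β1, against 128 and 122 CPM in controls (log2 fold change 0.13, SE 0.041, adjusted p = 0.0258). Its call was lost without control replicate 2 (adjusted p = 0.187).

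The largest increases of all 39 genes were among receptors. Lman1 encodes ERGIC-53, the lectin that carries glycoproteins such as coagulation factors out of the ER. It had 295, 289.5 and 303 CPM with TGF-β1, against 198 and 203 CPM in controls, a log2 fold change of 0.56 (SE 0.033, adjusted p = 1.05e-06), or 47.5% more transcript. The related lectin gene Lman2 (VIP36) changed less, with 201, 196 and 196 CPM with TGF-β1, against 176 and 182 CPM in controls (log2 fold change 0.14, SE 0.034, adjusted p = 0.00717, and 0.0684 without control replicate 1). Surf4 (chromosome 2, 26920040 to 26933928), an export receptor for soluble secreted proteins, had 583, 580.4 and 619 CPM with TGF-β1, against 482 and 489 CPM in controls (log2 fold change 0.29, SE 0.033, adjusted p = 8.54e-05). Ergic1, a membrane protein cycling through the ER-Golgi intermediate compartment, had 217, 218 and 216 CPM with TGF-β1, against 228 and 229 CPM in controls (log2 fold change −0.08, SE 0.029, adjusted p = 0.0617). Its groups did not overlap, and it was called lower with upper-quartile factors (adjusted p = 0.0452) and library totals (adjusted p = 0.000999). Of its 8888 exon bases, 11 are shared with Dusp1 on the other strand, so its value is marked uncertain by the rule on overlaps given below.

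KDEL receptors catch escaped ER chaperones in the Golgi by their C-terminal KDEL signal and return them in COPI vesicles. All 3 genes were higher. Kdelr2 (chromosome 5, 143403838 to 143421901) had 294, 299 and 313 CPM with TGF-β1, against 207 and 207 CPM in controls (log2 fold change 0.55, SE 0.035, adjusted p = 1.75e-06). Kdelr3 (chromosome 15, 79516411 to 79527739) had 123, 114 and 124 CPM with TGF-β1, against 81.1 and 86.2 CPM in controls (log2 fold change 0.53, SE 0.051, adjusted p = 3.03e-05). It shares 4 exon bases with Ddx17 on the other strand, an abundant gene with a log2 fold change of 0.00, and is marked uncertain by the same rule. Kdelr1 (chromosome 7, 45872772 to 45883732) had 173, 171 and 175 CPM with TGF-β1, against 141 and 141 CPM in controls (log2 fold change 0.30, SE 0.033, adjusted p = 8.25e-05). The increases were thus 46.1%, 44.1% and 22.8%, and no TGF-β1 library of any of the 3 reached down to a control.

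The p24 proteins (TMED family) are small cargo receptors that cycle between ER and Golgi in hetero-oligomers and bind both coats. All 4 genes were higher. Tmed2 (chromosome 5, 124540695 to 124550506) had 332, 328 and 331 CPM with TGF-β1, against 236 and 248 CPM in controls (log2 fold change 0.45, SE 0.032, adjusted p = 3.71e-06). Its value is uncertain because the processed pseudogene Gm10698 is identical to it over 604 bases and was counted at 68.0, 66.6 and 65.4 CPM with TGF-β1, against 47.7 and 47.9 CPM in controls. Summed, the gene and its copy had 399.99, 394.5 and 395.8 CPM with TGF-β1, against 284 and 295 CPM in controls. The groups thus stayed apart. The copy and the sum were scaled with rounded TMM factors, by which Tmed2 alone had 247 CPM in control replicate 2. Tmed9 and Tmed3 rose by 33.5% and 27.2%, with averages of 218 ± 6.05 and 112 ± 3.07 CPM with TGF-β1 and 163 ± 3.22 and 88.2 ± 1.71 CPM in controls. Tmed10 rose least, with 214, 211 and 220.1 CPM with TGF-β1, against 199 and 201 CPM in controls (log2 fold change 0.11, SE 0.033, adjusted p = 0.0275), and its call was lost in 6 of 13 alternatives, among them without control replicate 1 (adjusted p = 0.135), without control replicate 2 (adjusted p = 0.0861) and without TGF-β1 replicate 1 (adjusted p = 0.0582). The processed pseudogene Tmed10-ps is 99.4% identical to Tmed10 over 324 bases. Scaled by library totals, it averaged 7.43 CPM over the 5 libraries, against 209 CPM for Tmed10. That is too low to mark Tmed10 uncertain, but its part in so small a change was not tested. Sec22b (chromosome 3, 97901190 to 97923276), the SNARE of ER-Golgi vesicles, had 106, 109.9 and 111 CPM with TGF-β1, against 86.3 and 79.9 CPM in controls (log2 fold change 0.39, SE 0.047, adjusted p = 0.000138).

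Per kilobase of exon, where levels of different genes can be compared, Arf1, Surf4, Kdelr2 and Arf4 were the 4 most abundant transcripts in both groups. Arf1 had 206 ± 3.34 CPM per kb with TGF-β1 and 171 ± 1.45 CPM per kb in controls (SD, n = 3 and 2). Surf4 had 181 ± 6.62 CPM per kb with TGF-β1 and 148 ± 1.54 CPM per kb in controls. Kdelr2 had 165 ± 5.38 CPM per kb with TGF-β1 and 113 ± 0.053 CPM per kb in controls. Arf4 had 151 ± 3.45 CPM per kb with TGF-β1 and 115 ± 3.19 CPM per kb in controls. Their order depends on the length, and so does the set of 4 in controls. Divided by the longest transcript, a setting chosen after seeing the data, Arf4 stood above Arf1. The values were 251 against 216 CPM per kb with TGF-β1 and 191 against 179 CPM per kb in controls. By that length Tmed2, whose value is uncertain, stood above Kdelr2 in controls, at 117 against 113 CPM per kb. At the other end, Sec24a, Copg2 and Mia2 had 6.5, 6.22 and 8.38 CPM per kb with TGF-β1 and 4.79, 6.93 and 6.55 CPM per kb in controls, although Mia2 reached 21.2 CPM per kb with TGF-β1 and 16.6 CPM per kb in controls by its longest transcript.

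Where a step has several genes, the share of each paralog within its family was computed from its level per base of exon. A share does not depend on scaling between libraries, but its size does depend on the length used. The 7 families gave 17 shares, and 2 groups of 3 and 2 libraries cannot give an exact two-sided permutation p below 0.1. Of the 17 shares, 10 reached that value (0.17 after Benjamini-Hochberg adjustment), so none passed. In a family of 2 genes the shares mirror each other and have the same p, so the 10 are not separate results. Sec23a held 80.8 ± 0.157% of the Sec23 family with TGF-β1 and 78.1 ± 1.62% in controls (SD, n = 3 and 2). Sec24d was the leading Sec24 form, at 48.9%, 50.1% and 49.7% with TGF-β1 and 46.0% and 47.4% in controls, while Sec24c made up 25.8 ± 0.921% with TGF-β1 and 28.1 ± 0.787% in controls. Among the γ-COP genes, Copg2 held 16.4%, 17.1% and 15.7% with TGF-β1 and 20.4% and 21.7% in controls. The difference was −4.62 points by exons and −3.36 points by longest transcript, where Kdelr1 (−3.67 points) and Sec23a (3.5 points) differed more, so the order of the families depends on the length. Among KDEL receptors, Kdelr1 held 26.9 ± 0.385% with TGF-β1 and 30.4 ± 0.254% in controls, and Kdelr2 held 48.2 ± 0.813% with TGF-β1 and 45.7 ± 0.513% in controls. The Mia2 share was 16.1 ± 0.54% with TGF-β1 and 16.2 ± 0.28% in controls (exact p = 0.9), or 24.6% with TGF-β1 and 24.7% in controls by longest transcript, and the Copz2 share was 40.6 ± 0.171% with TGF-β1 and 41.7 ± 1.8% in controls (exact p = 0.3). No share changed its direction with the longest transcript.

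**Figure D3:**
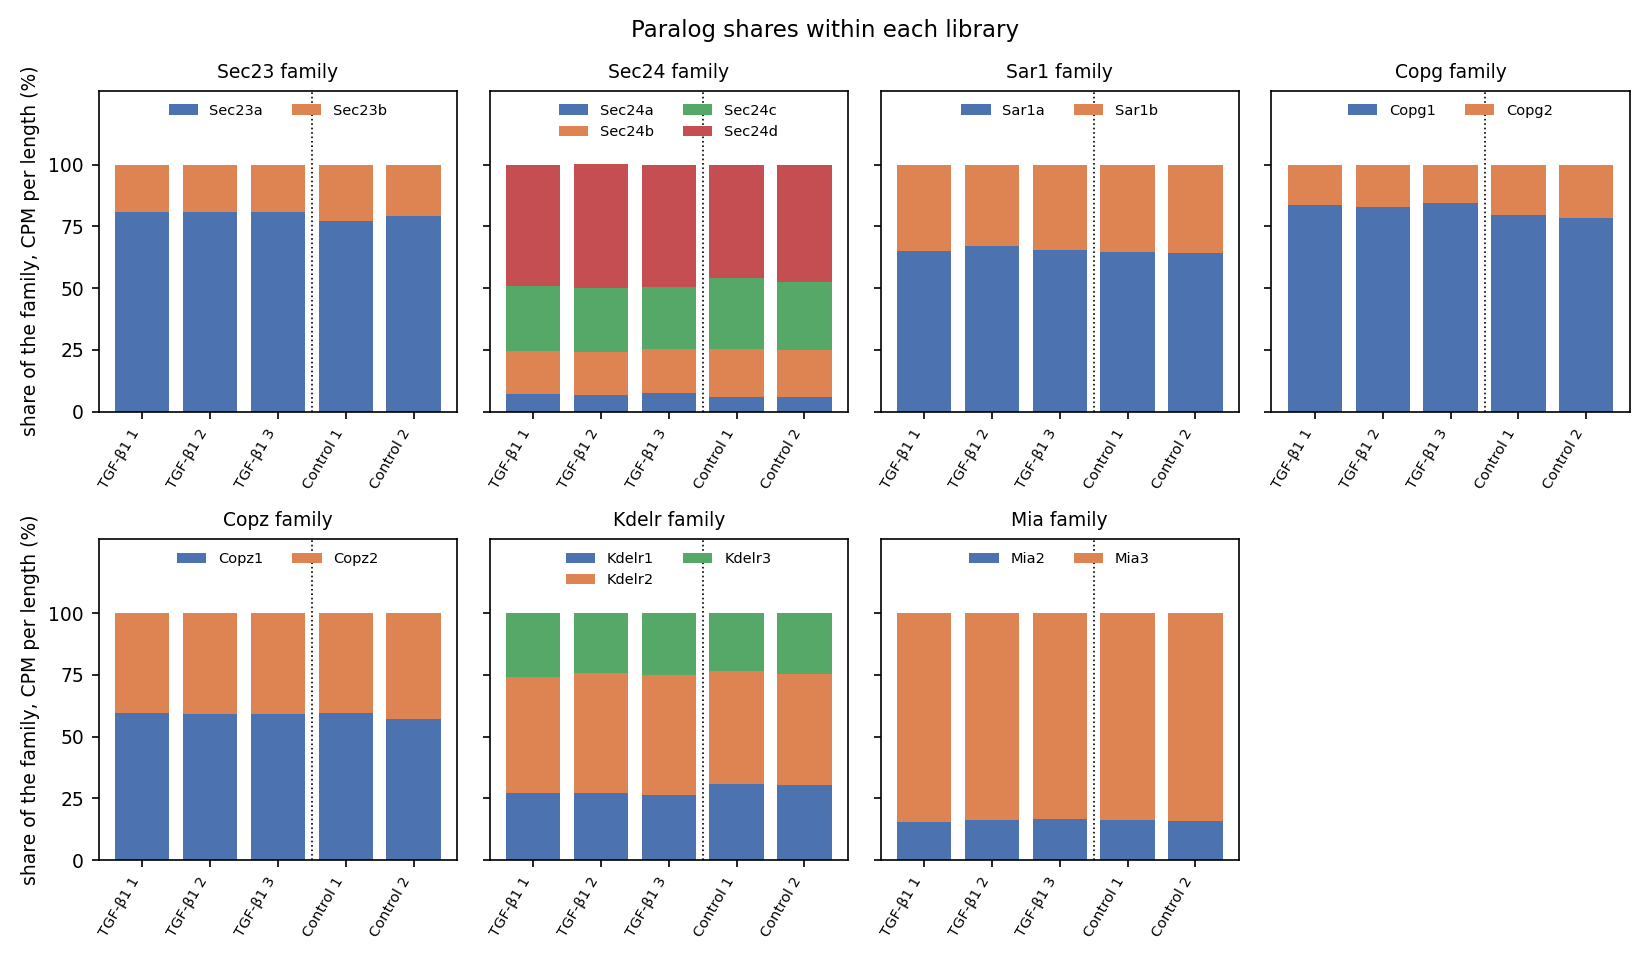
Stacked bars give the share of each paralog in its family in each library, in percent of the family's CPM per base of exon, with the 3 TGF-β1 libraries left of the dotted line and the 2 controls right of it. The composition moves by under 5 points in every family. Copg2 has 16.4% of its family on average with TGF-β1 and 21.0% in controls.

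Because most of these genes moved together, their promoters were searched for short motifs on both strands. RefSeq promoter windows on GRCm38.p6, from 250 bases before to 50 after each annotated start, matched 35 of the 39 genes. Of 13 motifs searched, TGACGTGG, the core of the unfolded protein response element bound by ATF6 and related bZIP factors, stood in 7 of 35 genes (20.0%), against 0.714% of 27025 genes with a window and 0.987% of the 10642 protein-coding genes that were tested here. The 7 sites are shown as 30 bases read along the strand that carries the motif, which is in capitals.

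Sec23a: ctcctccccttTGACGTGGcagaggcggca
Sec24d: gcccgggcgccTGACGTGGcactagcaacc
Copb1: aagtccttggcTGACGTGGaagggggcggg
Copb2: ggccaacccacTGACGTGGaacttccggga
Arf1: gcggcaggcgcTGACGTGGctgccgtcagc
Gbf1: tgtcagctcacTGACGTGGtaactagcctc
Kdelr3: tggccgcgcggTGACGTGGcggggcggcca

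They lie on GRCm38.p6 at chr12:59011993-59012022 (minus strand), chr3:123267459-123267488 (plus), chr7:114254690-114254719 (plus), chr9:98563713-98563742 (minus), chr11:59228228-59228257 (minus), chr19:46152535-46152564 (minus) and chr15:79516367-79516396 (minus), in the order listed. The motif starts 26 bases before the annotated start of Sec24d. The full 250 bases before the start of Kdelr3, on the plus strand at chr15:79516158-79516407, are given as an example of such a promoter, where the motif stands in the opposite orientation.

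Kdelr3 promoter: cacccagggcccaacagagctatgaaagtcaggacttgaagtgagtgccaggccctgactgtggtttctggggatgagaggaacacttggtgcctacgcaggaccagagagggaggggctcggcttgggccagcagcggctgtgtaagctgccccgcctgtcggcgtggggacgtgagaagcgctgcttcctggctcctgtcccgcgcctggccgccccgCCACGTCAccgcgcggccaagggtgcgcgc

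The other motifs gave no such picture or share letters with this one. The longer ER stress element, its type II variant and the SMAD palindrome GTCTAGAC were in 0 of the 35, against 0.179%, 0.0752% and 0.31% of tested coding genes. The cAMP response element TGACGTCA was in Cope alone (2.86% of the 35, against 3.48% of tested coding genes). CCAAT was in 42.9% against 43.0%, TATAAA in 5.71% against 8.81%, GGGCGG in 71.4% against 67.9% and CCGGAAG in 25.7% against 19.2%. Shorter or shifted forms that overlap the core were also more frequent in the 35 genes, with TGACGTG at 22.9% against 3.15%, TGACGT at 42.9% against 12.7%, ACGTGGC at 37.1% against 4.48% and CCACGT at 57.1% against 13.0%. Many of the ACGTGGC and CCACGT matches were in genes without TGACGTGG. ACGTGGC was in 13 genes, among them Sar1a, Sec13 and Sec31a, and CCACGT was in 20, while TGACGTGG was in 7. A match is a description of letters and no evidence of binding. The 7 genes with TGACGTGG had a median log2 fold change of 0.27, and the 28 matched genes without it 0.28.

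Other genes of the same route moved less uniformly. For the lists below, the shares over all genes tested were 21.3% higher and 23.2% lower. Among the 5533 genes at least as abundant as the scarcest of the 39, they were 40.6% and 22.9%. The lists were not cut at that level, so the 40.6% is not a matched background for them. They hold scarcer genes, such as Sec31b at 1.36 CPM with TGF-β1 and 1.52 CPM in controls. No list was tested against these shares. Of 12 further COPII cycle and exit-site genes, 5 were higher, 1 was lower and 6 did not pass (3 higher without control replicate 2, 0 lower without control replicate 1), and their median was 0.10. Sec16b, a paralog of the exit-site scaffold Sec16a, had 15.1, 15.5 and 17.8 CPM with TGF-β1, against 7.5 and 8.56 CPM in controls, a log2 fold change of 1.00 (SE 0.114, adjusted p = 8.73e-05). That is a larger estimate than for any of the 39 genes. Tmem39a and the cargo receptor gene Cnih1 rose by 30.4% and 25.3%. Of 13 further COPI cycle genes, 6 were higher and 2 lower, with a median of 0.05. Arf2, a further ARF GTPase of mouse, had 38.3, 34.8 and 41.8 CPM with TGF-β1, against 80.1 and 75.8 CPM in controls (log2 fold change −1.03, SE 0.073, adjusted p = 3.75e-06), opposite to Arf1 and Arf4. Golph3l fell by 0.51 on the log2 scale, and Arfgap3, a GTPase activator for ARF1, rose by 44.5%.

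Of 12 further receptor genes, 10 could be tested, and 3 were higher and 1 lower. Tmed6 and Tmed11 had 0 counts. Mcfd2, the soluble partner of ERGIC-53, had 248, 244 and 253 CPM with TGF-β1, against 174 and 183 CPM in controls (log2 fold change 0.48, SE 0.036, adjusted p = 5.6e-06), close to its partner Lman1. Tmed5 averaged 76.3 ± 1.04 CPM with TGF-β1 and 58.2 ± 7.8 CPM in controls (log2 fold change 0.39), and Tmed1 fell by 0.48 on the log2 scale. Both overlap genes on the other strand (Mtf2 and Dnm2) and are uncertain. Among 13 SNARE genes and regulators 5 were higher and 1 lower, with Bet1 and Ykt6 at log2 fold changes of 0.58 and 0.43 and Bet1l, uncertain through its overlap with Ric8a, at 0.35. Of 19 tethers and Rab GTPases, 11 were higher and 1 lower, among them Gorasp2 (0.45, exons overlapping Tlk1), Nbas (0.38) and Cog3 (0.34). This count fell to 7 without control replicate 2 and to 5 with library totals. TRAPP genes, which encode a tethering complex, were mostly without a call, with 2 of 14 higher (Trappc4 and Trappc2, both overlapping other genes) and 1 lower (Trappc10). The higher count was 1 without control replicate 2, and the lower count was 0 without control replicate 1 and 3 without TGF-β1 replicate 3.

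The step before vesicle budding moved like the coats. Of 23 genes for the ER translocon, signal recognition and signal peptidase, 21 were higher, 0 lower and 2 did not pass, with a median of 0.35. Sec61a1, the channel subunit, had 448, 438 and 480.4 CPM with TGF-β1, against 328 and 329.5 CPM in controls (log2 fold change 0.47, SE 0.040, adjusted p = 1.19e-05). Srp19 and Ssr1 followed the same course, at 0.52 and 0.49. The clathrin and adaptor genes did not share it. Of 24 such genes, 4 were higher, 7 lower and 13 did not pass, with a median of −0.04. They include the Ap2 genes, whose adaptor acts in uptake at the cell surface and not in secretion. Ap2s1 and Ap3m2 fell by 0.37 and 0.34 on the log2 scale, and Ap1s2 rose by 26.3%. The number of lower genes was 4 without control replicate 1 or without TGF-β1 replicate 2, 3 without control replicate 2, and 13 with library totals. Whether these lists differ from the 39 genes was not tested.

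Of 9 transcription factors known to act on secretory capacity, 8 could be tested, and 5 were higher and 1 lower (2 lower without control replicate 2). Creb3l2, which in mouse cartilage drives Sec23a, had 525, 537 and 546 CPM with TGF-β1, against 331 and 313 CPM in controls (log2 fold change 0.74, SE 0.033, adjusted p = 1.61e-07). Creb3l1, a collagen-related factor of bone, had 304, 314 and 296 CPM with TGF-β1, against 169.7 and 172 CPM in controls (log2 fold change 0.83, SE 0.034, adjusted p = 9.93e-08). Atf4 had 329, 334 and 262 CPM with TGF-β1, against 228 and 217 CPM in controls (log2 fold change 0.47, SE 0.091, adjusted p = 0.00239), with replicate 3 the lowest of its group. The link between these factors and the 39 genes was not tested.

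**Figure D4:**
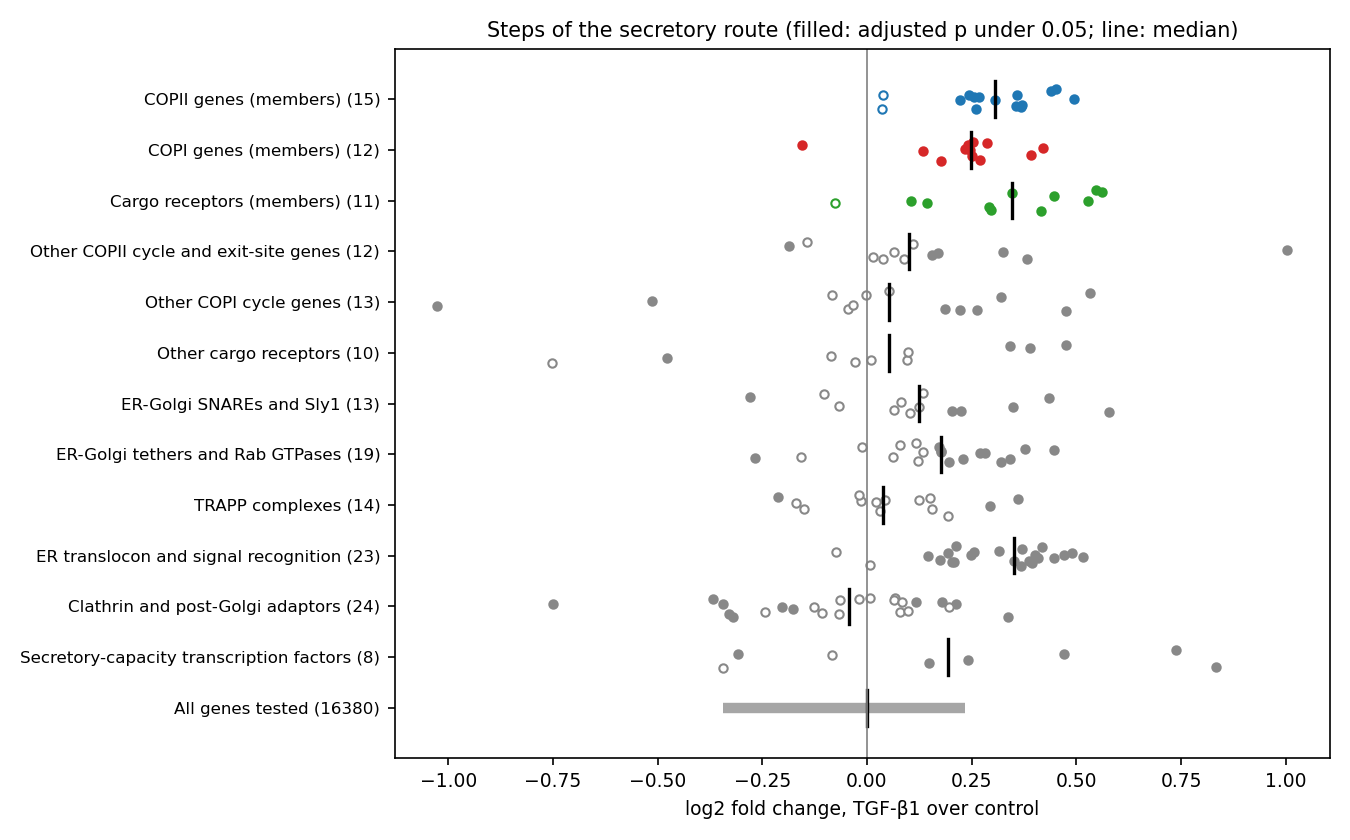
Log2 fold change of each gene in the COPII, COPI and receptor sets and in the wider lists, with the number of genes tested in brackets. Black lines stand at the median, filled points have an adjusted p under 0.05 and open points lie above it. The grey bar for all genes tested spans the quartiles from −0.34 to 0.23. The COPII, COPI and receptor genes and the translocon list lie almost wholly right of 0, while the clathrin adaptors lie on both sides.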

How the data were processed

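Messenger RNA of 5 libraries was measured, and the authors deposited 1 table of raw counts per Ensembl gene ID. Per the submitters' processing notes, STAR 2.5.3a, StringTie 1.3.1c and build mm10 were used, with no role given. The libraries were strand-specific and polyA-selected, per the labels' protocols. The counter, its strand setting and its treatment of multi-mapping reads were not stated by the labels, so genes were marked uncertain when an exon overlap or a copy of at least 95% identity over 200 bases (BLAST 2.17.0) was counted above 0.1 of their level. Symbols and coordinates come from GENCODE M21 (GRCm38), matched for 55154 of 55335 IDs. The other 181 IDs held at most 0.00374% of a library.

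Columns were assigned by title. Genes passing filterByExpr (16380) were TMM-scaled and tested with edgeR 4.0.16 (R 4.3.3) with group as the only term and Benjamini-Hochberg adjustment of two-sided p-values. SE is the absolute log2 fold change over the square root of F. The marker sums and the values of Gm10698 used rounded TMM factors, so they differ slightly from the other CPM. Paralog shares were compared by an exact two-sided permutation test. The model was tested on simulated data. Alternatives were other scalings and filters, DESeq2 1.42.0, limma 3.58.1, a test against 1.5-fold, a replicate block and leaving out each library. The genes and lists were chosen with earlier results of these data known. Genes with full values are those with a log2 change of at least 0.5, the most abundant per length of each role and their paralogs, plus further members of the 39 added after their values were seen, and up to 3 per wider list by size of change. Libraries held 34283288 to 43163967 counts.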

Additional observations from a re-analysis of the deposited data

How the results depend on the processing

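The scarcest of the 39 genes, Copg2, averaged 31.9 CPM with TGF-β1 and 35.5 CPM in controls, so each gene had many reads, and the 5 libraries limit the precision. Of the 35 genes called higher, 30 kept the call in each of 13 alternatives (the test against 1.5-fold aside), and Sec16a, Copz2, Gbf1, Tmed10 and Lman2 lost it in at least 1.

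With library totals alone, 2325 genes were called higher in all, 2 of the 39 were lower (1 of them a receptor), the wider lists held 30 lower genes, and the median log2 fold change was 0.21 for COPII, 0.15 for COPI and 0.25 for receptors. Sec24b and Sec24c were then at −0.06 each. Upper-quartile factors also gave 2 of the 39 lower, 1 of them a receptor. Tested against 1.5-fold, 563 genes were higher and 1223 lower in all, 0 of the 39 were called in either direction (0 in COPII, COPI or receptors), and the wider lists held 3 higher and 1 lower. The 1 lower gene, Copg2 in COPI, was not called with median-of-ratios factors, no filter, DESeq2, limma-voom or the replicate block (0 each), nor with any library left out (0 to 0). Sec24b ranged from 0.00 to 0.06 with a library left out, turning just below 0 without TGF-β1 replicate 3, and was 0.00 with the replicate block. The causes were not tested.

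Deviations of same-numbered libraries from their group means were nearly uncorrelated, at 0.0159 and 0.0161. The deviations of the controls mirror each other, so these values are not independent. They cannot decide whether same-numbered libraries share an animal or a batch, which the labels do not state. With the replicate block, 34 of the 39 were higher. Leaving out 1 library gave 32 to 35 higher. Without a control, the lone control is assumed to vary like the TGF-β1 libraries. Replacing the exon union by the longest transcript turned the direction of no paralog share. With the replicate block, the TRAPP list had 3 lower genes.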
